A study of Mus musculus with 12 samples.

Results

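The acute phase genes Saa1, Saa2, Saa4, Orm1, Orm2, Hp, Hpx, Lcn2, Crp and Apcs were read from the Ribo-seq data of mouse liver. They were picked out by gene symbol, and all 10 were found among the 25033 entries of the Ribo-seq table. Ribo-seq reads the pieces of mRNA that translating ribosomes shield from a nuclease, so a level here is the amount of ribosome footprints on a gene and joins its mRNA level and its translation. The question addressed was how the footprints of these secreted proteins differed between livers of mice on a high-fat diet with lycopene, a carotenoid of tomato, and livers of mice on the high-fat diet alone.

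The HFD group (n = 3 libraries) and the LYC group (n = 3 libraries) were both livers of C57BL/6 male mice of 16 weeks of age, fed from an age of 8 weeks for 8 weeks. Both groups received the high-fat diet, and the LYC group received lycopene in it by the sample titles and the methods of the study, while their treatment label gives only the high-fat diet. The labels state that RNA or footprints were pooled before the libraries were built, and the Ribo-seq methods of the study also state that digested samples were pooled. Its results name 3 biological replicates of each group. The p-values therefore measure the spread between libraries. A chow-fed group was not analysed here, so the level before the high-fat diet is unknown.

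The acute phase response is the change in the plasma proteins that hepatocytes secrete when interleukin-6, interleukin-1 and glucocorticoids reach the liver. Proteins whose level rises are called positive and those that fall, such as albumin, negative. Serum amyloids A travel on high-density lipoprotein, the orosomucoids carry lipophilic molecules, haptoglobin and hemopexin capture free haemoglobin and haem, lipocalin-2 withholds iron-loaded siderophores from bacteria, and the pentraxins bind microbial and damaged surfaces. In mouse, serum amyloid P component is the main acute phase pentraxin and C-reactive protein moves little.

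Hpx, the gene of hemopexin, was lower in LYC, and Orm1, the gene of orosomucoid 1 (alpha-1-acid glycoprotein), was higher. Hpx fell from 2315 ± 302 RPKM in HFD to 768 ± 84.3 RPKM in LYC (SD, n = 3 each), and Orm1 rose from 254 ± 7.40 to 459 ± 72.1 RPKM (SD, n = 3 each). These were the 2 members called of the 7 that could be tested, where 13.4% of all 5659 genes tested were called. The call of Hpx held under every setting tried and that of Orm1 did not, as given with its values. Hp, the gene of haptoglobin, and Saa4, the constitutive serum amyloid A, lay lower in every LYC library than in any HFD library, as did 27.5% of all genes tested, and neither passed the limits of a call. The LYC and HFD libraries overlapped in Saa1, Saa2, Orm2, Lcn2, Crp and Apcs.

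A gene was called where its log2 fold change lay beyond 1 in either direction with p below 0.01, unadjusted, in limma's moderated test, two-sided, on log2(RPKM / TMM factor + 1). RPKM is the read number divided by gene length and by library depth, and the TMM factor, from edgeR, scales the libraries to each other. RPKM moves in steps of whole reads, and these steps gave library totals of 834410 to 4405541 reads in HFD and 311050 to 412116 in LYC. Depth was lower in every LYC library, so depth and diet cannot be told apart. Genes of small non-coding RNA took 2.01% to 3.38% of the reads in HFD and 7.57% to 11.5% in LYC. Over all genes 402 were called higher and 359 lower. With RPKM as deposited, without the TMM factor, these counts were 234 and 655. The median over all genes tested was a log2 fold change of -0.09 with the factor and -0.36 without it. Fold changes are therefore read against this shift. In a bulk liver, fewer cells of a type and less RNA per cell cannot be told apart.

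The 10 genes include 2 pairs of close copies, and the sequences show how far reads of about 28 bases can tell them apart. The coding sequences of Saa1 and Saa2 were 95.1% identical, with 18 of 369 bases different, and 38.3% of their stretches of 28 bases were found in both genes. Those of Orm1 and Orm2 were 89.9% identical, with 63 of 624 bases different, and 19.4% of the stretches of 28 bases were shared. Bases 92 to 181 of the Saa coding sequences and bases 139 to 228 of the Orm coding sequences are printed here from GRCm38, with the bases that differ within a pair in capitals. Each is the stretch of 90 bases within a single exon of both genes that holds the most differing bases. A printed stretch is therefore not typical of its coding sequence. Saa1 lies on chromosome 7 (chr7:46741305-46741394, minus strand), Saa2 beside it (chr7:46753418-46753507, plus strand), and Orm1 (chr4:63345090-63345179) and Orm2 (chr4:63362965-63363054) lie on the plus strand of chromosome 4.
Saa1: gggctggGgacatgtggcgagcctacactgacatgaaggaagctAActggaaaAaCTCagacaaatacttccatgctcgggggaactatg
Saa2: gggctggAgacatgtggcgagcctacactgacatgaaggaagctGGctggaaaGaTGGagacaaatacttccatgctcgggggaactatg
Orm1: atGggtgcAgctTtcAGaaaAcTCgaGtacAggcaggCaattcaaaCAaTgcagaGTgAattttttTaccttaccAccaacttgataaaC
Orm2: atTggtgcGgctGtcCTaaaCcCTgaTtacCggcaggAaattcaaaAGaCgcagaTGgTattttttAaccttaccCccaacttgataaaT
The Saa stretches differ at 7 bases, and the run in lower case after the first of them is longer than a footprint of 28 bases. The Orm stretches differ at 20 bases. A read that fits both genes of a pair can be assigned to either, so the sums over each pair are given beside the single values.

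Among the genes of haem and haemoglobin capture, Hpx carried the most footprints of the 10 in HFD. Hpx (chr7:105591611-105600116 in GRCm38) stood at 2011, 2614 and 2319 RPKM in HFD1, HFD2 and HFD3 and at 695, 749 and 861 RPKM in LYC1, LYC2 and LYC3. The lowest HFD library was thus above the highest LYC library by a wide margin, and the mean RPKM was 3.01 times higher in HFD. After TMM scaling the log2 fold change was -1.29 with SE 0.24 (95% interval -1.83 to -0.75, adjusted p = 0.0124 in limma with Benjamini-Hochberg adjustment), and 6.34% of all genes tested were called lower. The values rest on 345 to 17044 reads in a library. Hp (chr8:109575128-109579172) stood at 1362, 1644 and 1347 RPKM in the HFD libraries and at 782, 605 and 962 RPKM in the LYC libraries. The groups did not overlap, which held for 37.6% of all genes tested in either direction. The log2 fold change of Hp was -0.61 with SE 0.28 (95% interval -1.24 to 0.02, adjusted p = 0.175 in limma), so it was not called.

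**Figure D1:**
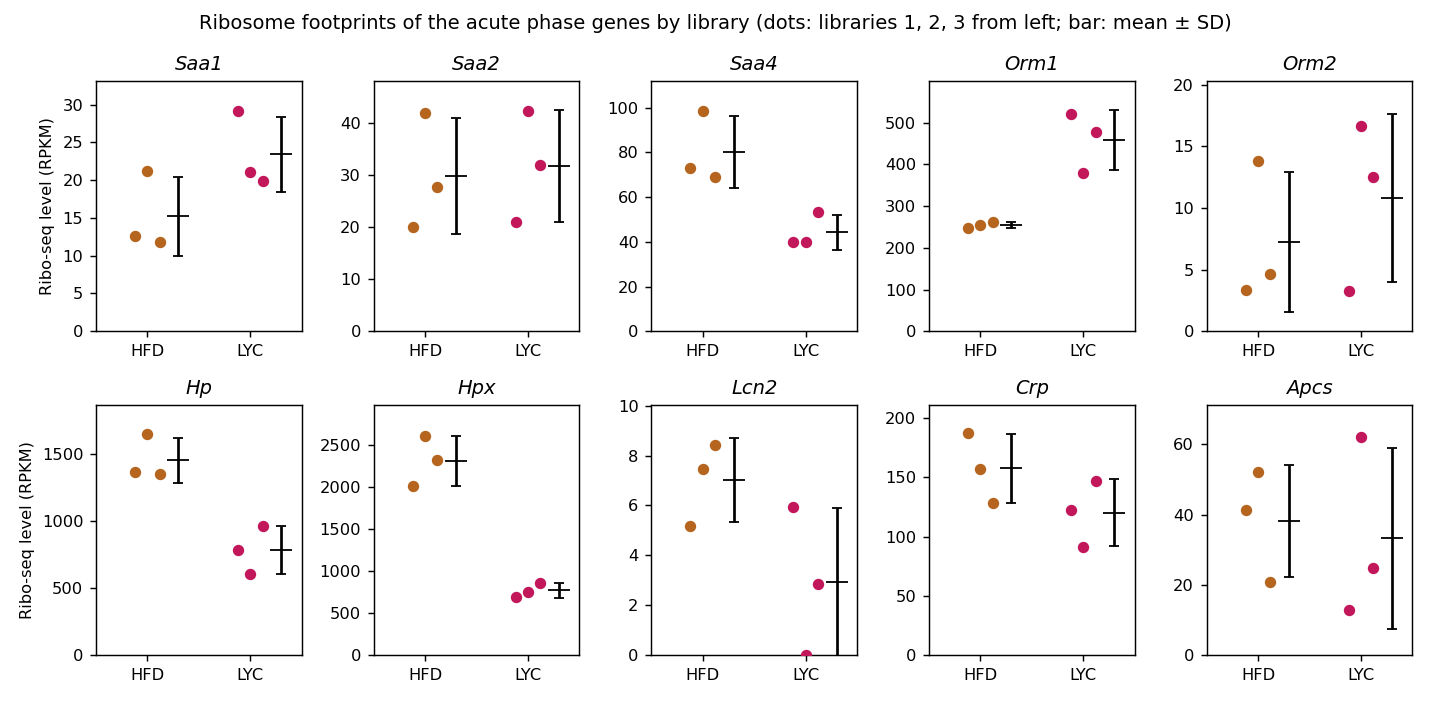
Ribosome footprints in RPKM (vertical axis of each panel, from 0) of the 10 acute phase genes in the 3 HFD and the 3 LYC libraries, with the group mean and SD as bars. The LYC libraries lie below all HFD libraries for Saa4, Hp and Hpx and above all of them for Orm1 (380 to 521 against 247 to 262 RPKM), and the groups overlap for the other 6 genes.

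Both proteins of this pair act on products of haemolysis, and the balance of their footprints differed between the groups. The ratio of Hp to Hpx within a library, which no scaling between libraries can change, was 0.677, 0.629 and 0.581 in HFD and 1.12, 0.807 and 1.12 in LYC. Hpx lay above Hp in all 3 HFD libraries, while in LYC Hp lay above Hpx in 2 of 3 libraries. Hpx supplied 53.1% ± 2.25 (SD, n = 3) of the summed RPKM of the 10 genes in HFD and 33.9% ± 3.15 (SD, n = 3) in LYC, whereas the share of Hp was 33.3% ± 1.16 and 34.1% ± 3.58 (SD, n = 3 each). Of the receptors of both proteins, Lrp1, which clears haem-bound hemopexin, had a log2 fold change of -0.08, and Cd163, the macrophage receptor of haptoglobin with haemoglobin, picked after its values were seen, had 4.42 ± 1.60 RPKM in HFD and 4.66 ± 2.25 RPKM in LYC (SD, n = 3 each). Neither was called.

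The upstream sequence of Hpx is printed because Hpx was the called gene with an entry in the RefSeq promoter table (GRCm38.p6), which also held Saa1, Saa2, Saa4, Orm2, Lcn2, Crp and Apcs. These are the 250 bases before its start, on the minus strand (chr7:105600117-105600366), with a match to the C/EBP motif TTGCNNAA in capitals at 200 to 193 bases before the start.
Hpx: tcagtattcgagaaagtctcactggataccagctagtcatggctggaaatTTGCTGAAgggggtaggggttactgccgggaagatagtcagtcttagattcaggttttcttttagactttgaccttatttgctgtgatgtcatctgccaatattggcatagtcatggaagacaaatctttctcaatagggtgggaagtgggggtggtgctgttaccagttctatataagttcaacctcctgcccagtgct
The motifs were searched on both strands from 250 bases before to 50 after the start, as bare letters. TTGCNNAA was found in 6 of the 8 promoters (Saa1, Saa2, Saa4, Orm2, Lcn2 and Hpx) and in 10.8% of all 32851 promoters of the table. The NF-kB motif, GGG and CC with any 5 bases between them, was found in Saa1, Saa2, Saa4, Lcn2 and Crp and in 50.8% of all promoters. The STAT motif TTCNNNGAA was found in Apcs and in 8.30% of all promoters. Of the 6 genes with the C/EBP letters, Hpx was called, and Saa1, Orm2 and Lcn2 were not tested.

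Among the lipid-carrying genes, Orm1 was called in the other direction from Hpx. Orm1 (chr4:63344556-63348163) stood at 247, 254 and 262 RPKM in the HFD libraries and at 521, 380 and 477 RPKM in the LYC libraries. The HFD libraries were close to each other, and each LYC library lay above them, as for 10.0% of all genes tested. The log2 fold change was 1.13 with SE 0.26 (95% interval 0.53 to 1.73, adjusted p = 0.0283 in limma), and 7.10% of all genes were called in this direction. The call of Orm1 was lost on RPKM as deposited (log2 fold change 0.84), without HFD2 (1.04, unadjusted p = 0.0117 in limma) and without LYC1 (0.95). Orm1 supplied 5.88% ± 0.608 of the summed RPKM of the 10 genes in HFD against 20.2% ± 2.71 in LYC (SD, n = 3 each). That sum was itself lower in LYC, at 2277 RPKM on average against 4355 in HFD. The share therefore rose more than the mean RPKM of Orm1, which was 1.81 times higher in LYC.

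Orm2, its close copy, stood at 3.32, 13.8 and 4.65 RPKM in the HFD libraries and at 3.28, 16.6 and 12.5 in the LYC libraries. These values rest on 3 to 47 reads in HFD and 1 to 4 in LYC, so Orm2 fell under the filter on low genes and was not tested. The sum of Orm1 and Orm2 was 261 ± 9.74 RPKM in HFD and 470 ± 66.0 RPKM in LYC (SD, n = 3 each; exact permutation p = 0.1, two-sided, the smallest that 3 against 3 libraries allow). Nearly all reads of the pair were assigned to Orm1, and Orm2 held 3.51% of the reads of the pair in HFD and 2.17% in LYC.

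The ratio of Orm1 to Hpx joins the called genes of both directions, and since they were picked for their direction it is given with no test. It was 0.123, 0.0971 and 0.113 in HFD1, HFD2 and HFD3 and stood at 0.749, 0.507 and 0.554 in LYC1, LYC2 and LYC3. Hpx exceeded Orm1 in all 6 libraries, but by far less in LYC, and the mean log2 ratio was 2.43 higher in LYC. As a ratio within a library, it does not depend on any scaling between libraries. The ratio of Orm1 to Hp was also higher in each LYC library, 0.496 to 0.666 against 0.154 to 0.194 in HFD.

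**Figure D2:**
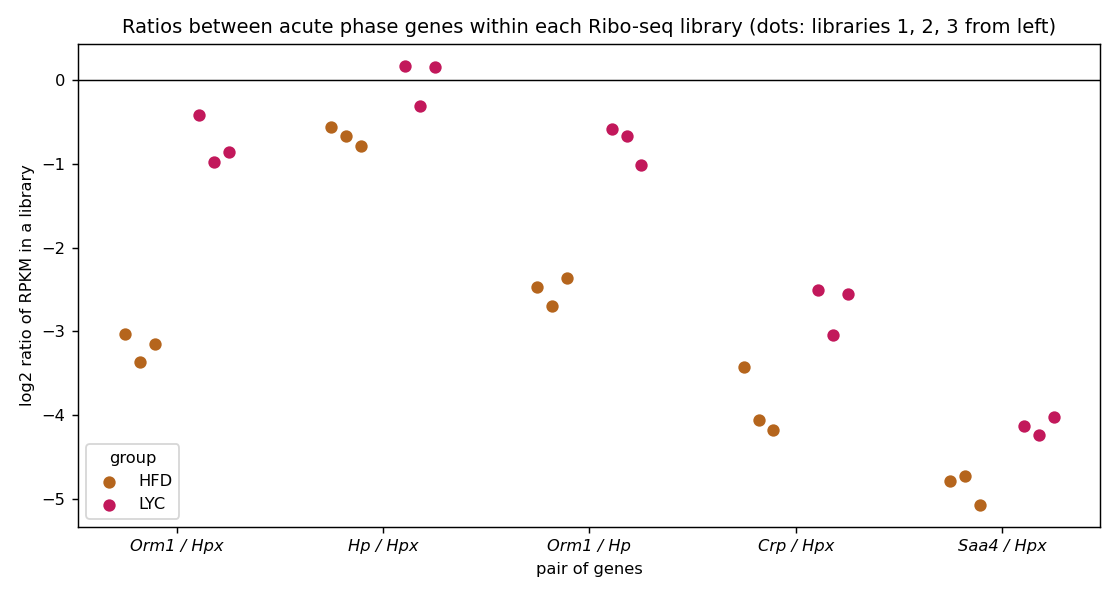
Log2 ratio of the RPKM of pairs of acute phase genes within each Ribo-seq library (vertical axis), with the HFD and LYC libraries as dots for each pair on the horizontal axis. Orm1 over Hpx lies between -3.37 and -3.03 in HFD and between -0.98 and -0.42 in LYC, and the ratios of Hp, Crp and Saa4 to Hpx are also higher in each LYC library. Hpx fell the most of the tested members, so a higher mean ratio to it follows for any member that fell less.

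No serum amyloid A gene was called. Saa4 (chr7:46727992-46732603), expressed without induction, stood at 73.2, 98.7 and 69.1 RPKM in HFD and at 39.8, 39.8 and 53.2 in LYC. The groups did not overlap, as for the 27.5% of all genes tested with LYC below, and the log2 fold change was -0.55 with SE 0.24 (adjusted p = 0.166 in limma), under the limit of a call. Saa1 and Saa2, the genes that inflammation induces strongly, were low in both groups. Saa1 stood at 12.6, 21.2 and 11.8 RPKM in HFD and at 29.1, 21.1 and 19.9 in LYC, from 6 to 57 reads in HFD and 4 to 7 in LYC, and it was not tested. The read numbers of Saa1 and Saa2 rest on the shortest gene length that makes their values whole reads, so they can be too low. The groups overlap on the deposited scale through HFD2 alone, and after TMM scaling the LYC libraries lie above the HFD libraries. On the deposited scale 10.0% of all genes tested lay higher in every LYC library, and no such share is given here after TMM scaling. In a fit of every gene with a read, the log2 fold change of Saa1 was 0.90 with SE 0.30 (adjusted p = 0.144 in limma).

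Saa2 stood at 19.9, 41.9 and 27.6 RPKM in HFD and at 20.9, 42.4 and 32.0 in LYC, values that cover the same range. Its log2 fold change was 0.38 with SE 0.31 (95% interval -0.31 to 1.07, adjusted p = 0.433 in limma), and the LYC libraries held only 5 to 8 reads of it. The sum of Saa1 and Saa2 was 45.1 ± 16.0 RPKM in HFD and 55.1 ± 7.29 RPKM in LYC (SD, n = 3 each; exact permutation p = 0.4, two-sided). That sum overlaps between the groups on the deposited scale, and after TMM scaling each LYC library lies above the HFD libraries. RefSeq lists Saa1 and Saa2 as each other's older names, so which of the pair a row stands for depends on the annotation, and the sum does not. Scarb1, a receptor of high-density lipoprotein that also binds serum amyloid A, was called lower, from 104 ± 22.2 to 30.4 ± 9.35 RPKM (SD, n = 3 each; log2 fold change -1.48, adjusted p = 0.0220 in limma).

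The pentraxins did not separate the groups. Crp (chr1:172698056-172699966) stood at 187, 157 and 128 RPKM in HFD and at 122, 90.9 and 147 in LYC. The log2 fold change of Crp was -0.10 (95% interval -0.77 to 0.57, adjusted p = 0.845 in limma), an interval that leaves room for a change of either direction. Apcs (chr1:172893961-172895054), the gene of serum amyloid P component, stood at 41.4, 52.1 and 20.7 RPKM in HFD and at 12.9, 62.1 and 24.7 in LYC. LYC2 held the highest and LYC1 the lowest value of all 6 libraries, from 19 and 5 reads. Its log2 fold change was -0.09 (95% interval -1.20 to 1.01, adjusted p = 0.921 in limma).

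Lcn2 (chr2:32384637-32387739), the gene of lipocalin-2, had the lowest mean of the 10 in both groups, although Orm2 lay below it in HFD1, HFD3 and LYC1. It stood at 5.16, 7.45 and 8.43 RPKM in HFD and at 5.94, 0 and 2.84 in LYC, from 46 reads in HFD and 3 in LYC, and it was not tested. The 0 of LYC2 allows up to 11.3 RPKM, the worth of 3 reads, so a lower level in LYC was not detectable at this depth. The read rate of LYC was 0.465 times that of HFD, with a 95% interval of 0.0925 to 1.45 that covers counting error only, since reads without molecular identifiers are not independent molecules. Lcn2 is also a neutrophil granule gene. The summed level of 11 neutrophil markers was 2.98 to 5.57 RPKM in HFD and 18.7 to 26.7 RPKM in LYC, while Mpo, Ngp, Camp, Retnlg and Mmp8 had no read in any library. The sum in LYC comes from S100a8, S100a9 and Ly6g, with 4, 4 and 6 reads there, while Csf3r had 16 reads in HFD and none in LYC. The part of such cells in the level of Lcn2 was not tested.

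The order of the 10 genes by mean RPKM spanned 330 times from Hpx to Lcn2 in HFD and 267 times from Hp to Lcn2 in LYC. In HFD the ranges of Hpx, Hp, Orm1, Crp, Saa4 and Apcs followed each other without overlap, and the ranges of Apcs, Saa2, Saa1, Orm2 and Lcn2 overlapped with those of their neighbours. In LYC Hp and Hpx could not be ordered, Orm1 followed below both in all 3 libraries, and Crp and Saa4 came next. Saa4 lay above Apcs in 2 of the 3 LYC libraries, and their ranges overlapped. The summed RPKM of the 10 genes was 3962, 4904 and 4199 in HFD and 2233, 2007 and 2591 in LYC (exact permutation p = 0.1, two-sided, the smallest that 3 against 3 libraries allow), a sum in which Hp and Hpx hold most of the footprints. It is on the deposited scale, where 27.5% of all genes tested lay lower in every LYC library. In reads, the 10 genes took 0.609% of a library in HFD and 0.292% in LYC on average.

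Profiles over the 6 libraries were compared by the root mean square difference of centred log2 values, as a description. Among the 7 tested members the closest profiles were those of Saa4 and Hp, at 0.134. Of all genes tested, 39 lay closer to Saa4 and 30 lay closer to Hp. The nearest of all 5659 genes to Hpx were Retreg2 at 0.076, Trir at 0.106, Mrap at 0.108, Insig2 at 0.119 and Fign at 0.123. Of the other 6 tested members, the nearest to Hpx was Hp, at 0.379, and 430 tested genes lay closer.

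Of 22 other genes that rise in the acute phase 15 were tested, and 12 of them had a negative log2 fold change. By limma 0 of them were called higher and 1 lower, where 7.10% and 6.34% of all genes tested were. At an unadjusted p under 0.05, 2 of these 15 lay higher and 6 lower in limma, next to 15.1% of all genes tested in each direction. Both edgeR and DESeq2 on recovered reads called 0 higher and 2 lower, Lbp and C3. The share of all genes that these tools called is not given here, and the limma shares do not stand for it. The median log2 fold change of the 15 was -0.46 in limma, against -0.09 over all genes tested. The called gene was Lbp, which hands bacterial lipopolysaccharide to its receptor. Lbp stood at 36.8, 41.6 and 50.8 RPKM in HFD and at 7.03, 3.82 and 10.6 in LYC (log2 fold change -2.24, SE 0.39, adjusted p = 0.00994 in limma). C3, the central complement component, stood at 949, 1302 and 1320 RPKM in HFD and at 438, 298 and 656 in LYC. Its log2 fold change of -1.12 missed the call in limma with an unadjusted p of 0.0103 (adjusted p = 0.0687), and over the settings tried it ranged from -1.41 to -0.76 and was called in 8 of 18. Higher in every LYC library were Hamp, the gene of the iron hormone hepcidin, at 344 RPKM in HFD and 515 in LYC on average without a call, and among the 7 untested genes the metallothionein Mt1, at 10.5 and 64.0 RPKM from 51 and 40 reads, and Cd14, at 1.55 and 5.86 RPKM from 20 and 10 reads. These 3 were named after their values were seen, and 10.0% of all genes tested lay higher in every LYC library. On the same deposited scale 10 of the 22 lay lower in every LYC library, next to 27.5% of all genes tested. The fibrinogen chains Fga, Fgb and Fgg had log2 fold changes of -0.34, -0.46 and -0.83, and none was called. On the deposited scale no LYC library reached the lowest HFD library in any of the 3, as for 27.5% of all genes tested with LYC below, and after TMM scaling the groups overlapped in Fga and Fgb.

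Of 8 negative acute phase genes tested, 0 were called by limma, edgeR or DESeq2, where limma called 13.4% of all genes tested. At an unadjusted p under 0.05 in limma 0 of the 8 lay higher and 1 lower, next to 15.1% of all genes tested in each direction. Albumin (Alb) and transferrin (Trf) had log2 fold changes of -0.41 and -0.67, and transthyretin (Ttr) had -0.03. Apoa1, the main protein of high-density lipoprotein, had 0.61, and each LYC library lay above each HFD library. The median over the 8 genes was 0.14. On the deposited scale 4 of the 8, Alb, Ttr, Trf and Ahsg, lay lower in every LYC library, as 27.5% of all genes tested did. After TMM scaling the groups overlapped in Alb, Ttr and Trf and not in Ahsg, the gene of fetuin-A, nor in Hp and Hpx.

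**Figure D3:**
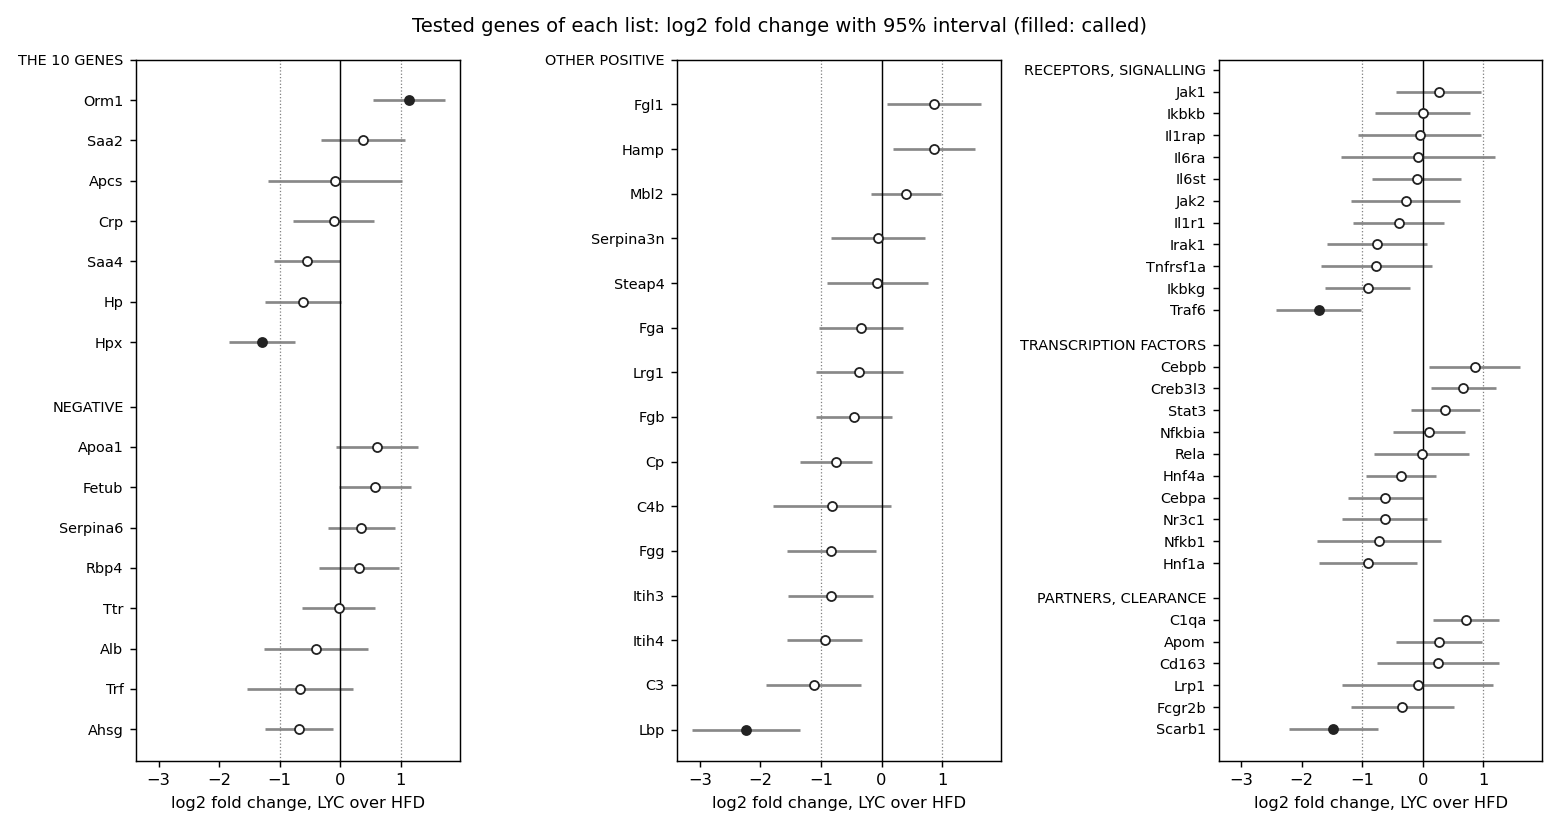
Log2 fold change of LYC over HFD (horizontal axis, with 95% intervals) of the tested genes of each list, filled where called and with dotted lines at -1 and 1. Hpx, Lbp, Traf6 and Scarb1 are called lower and Orm1 higher, and the intervals of most other genes include 0.

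Of the receptors and signal transducers of the response, 11 of 13 were tested, 0 were called higher and 1 was called lower by limma, Traf6, an adaptor of the interleukin-1 receptor and toll-like receptors (log2 fold change -1.72, adjusted p = 0.0107 in limma), where 6.34% of all genes tested were called lower. Of the 11, 10 had a negative log2 fold change. On the deposited scale 5 of the 13, with the untested Tyk2 among them, lay lower in every LYC library, next to 27.5% of all genes tested. Traf6 was low, at 4.93 ± 0.970 RPKM in HFD and 0.577 ± 0.219 RPKM in LYC (SD, n = 3 each), with 4 reads in LYC, and its log2 fold change was -0.73 without a call at a pseudocount of 5. Both edgeR and DESeq2 also called Ikbkg lower, a gene named after its values were seen. The share of all genes called lower by these tools is not given here. The interleukin-6 signal receptor Il6st had -0.10, Il1rap -0.05, the kinase Jak1 0.26 and the tumour necrosis factor receptor Tnfrsf1a -0.77, all as log2 fold changes and none called. Of the transcription factors and inhibitors, 10 of 14 were tested and 0 were called by limma, edgeR or DESeq2. By limma 13.4% of all genes tested were called. At an unadjusted p under 0.05 in limma 2 of the 10 lay higher and 1 lower, next to 15.1% of all genes tested in each direction. On the deposited scale 7 of the 14, tested or not, lay lower in every LYC library, next to 27.5% of all genes tested. Cebpa had a log2 fold change of -0.62, Hnf4a -0.36, Cebpb 0.86 and Creb3l3 0.67. Socs1 and Socs3, feedback inhibitors that interleukin-6 induces and that were picked here after their values were seen, had 1.00 ± 0.862 and 1.03 ± 0.168 RPKM in HFD (SD, n = 3 each) and no read in LYC, where depth was low. Of the binding partners and clearance receptors, 6 of 14 were tested, 0 were called higher and 1, Scarb1, was called lower. Over all genes tested 7.10% were called higher and 6.34% lower. On the deposited scale 3 of the 14, tested or not, lay lower in every LYC library, next to 27.5% of all genes tested. Apom, a lipocalin of high-density lipoprotein, had a log2 fold change of 0.26, C1qa, which pentraxins engage, 0.71 and the Fc receptor Fcgr2b -0.34.

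The tissue label fits its defining markers, with Alb at 27130 RPKM in HFD and 17050 in LYC on average. Of 10 hepatocyte markers, 0 were called lower and 3 higher, Cps1 (log2 fold change 1.08) and Tat (1.56) among them, where 7.10% of all genes tested were called higher and 6.34% lower. On RPKM as deposited Cps1 had 0.78, without a call, while 4 lay lower in every LYC library on that scale, Alb, Apoa2 and Ttr among them, next to 27.5% of all genes tested. After TMM scaling Apoa2 alone of these 4 stayed lower in every LYC library. Their summed level was 50290 to 59120 RPKM in HFD and 35800 to 44330 in LYC. Of 8 Kupffer cell markers, 5 were tested and 0 called in limma, and 1, Vsig4, was called higher by edgeR and by DESeq2. No share of all genes called is given here for edgeR and DESeq2. At an unadjusted p under 0.05 in limma 0 of the 5 lay in either direction, next to 15.1% of all genes tested in each. The summed level of the 8 markers, 124 to 165 RPKM in HFD, overlapped that of 98.9 to 174 in LYC. Of 7 erythroid markers, 3 were tested and Alas2 was called higher (log2 fold change 1.01, but 0.72 without a call on RPKM as deposited), with sums of 632 to 1433 RPKM in HFD and 847 to 990 in LYC. Lymphocyte markers summed to 1.30 to 4.86 RPKM in HFD and 0 to 2.16 in LYC. Bile duct markers summed to 15.4 to 25.0 RPKM in HFD and 2.89 to 9.25 in LYC, ranges that did not overlap. Spp1 made up most of both sums, at 16.9 RPKM in HFD and 4.98 in LYC on average, from 8 reads in LYC. Of these 5 markers 0 were tested. Endothelial markers summed to 44.4 to 61.8 RPKM in HFD and 13.6 to 89.8 in LYC, and stellate cell markers to 83.0 to 159 and 80.8 to 122 RPKM. The part of these markers in the levels of the acute phase genes was not tested.

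A second deposited table, labelled RNA-seq, was read beside the Ribo-seq table for the same 10 genes. Each of its libraries held, for 26.3% to 78.5% of genes, exactly the read number of a single Ribo-seq library, against at most 7.29% for any other pairing. The LYC libraries matched by number, and HFD1, HFD2 and HFD3 of that table matched HFD2, HFD3 and HFD1 of Ribo-seq. It was therefore not taken as independent evidence, and no translational efficiency was computed. Hpx had 28758 counts in the HFD and 1276 in the LYC libraries of that table, next to 28021 and 1276 reads in Ribo-seq. In edgeR's quasi-likelihood test on its counts, Hpx was lower by log2 fold change -1.28 and Orm1 higher by 1.23 (adjusted p = 0.00687 and 0.00346), and 16.6% of its 5921 genes tested were called, 9.31% higher and 7.33% lower. Without the TMM factor Orm1 had a log2 fold change of 0.14 there and was not called, while Hpx had -2.37 and was called. The single gene Lars2 took 6.68% to 14.96% of the counts in the HFD libraries of that table and 35.89% to 40.25% in its LYC libraries.

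The close copies were split differently in that table. Orm2 held 18.0% of the reads of Orm1 and Orm2 in HFD (95% Wilson interval 16.2% to 20.0%) and 15.0% in LYC (11.9% to 18.9%), where Ribo-seq gave 3.51% (2.72% to 4.53%) and 2.17% (1.15% to 4.08%). The sum of both genes was nearly the same in the 2 tables, 1591 counts against 1622 reads in HFD and 399 against 414 in LYC. There Orm2 was called higher (log2 fold change 1.03, adjusted p = 0.0469 in edgeR), a call that the replicate block, the filter and 5 of the 6 libraries left out in turn each end, and without the TMM factor its log2 fold change was -0.069. Saa2 held 41.1% of the reads of Saa1 and Saa2 in HFD (35.2% to 47.3%) and 24.2% in LYC (12.8% to 41.0%), where Ribo-seq gave 65.4% (59.3% to 71.1%) and 56.8% (40.9% to 71.3%), shares that rest on the fitted lengths of both genes. The sums again lay close, 248 counts against 243 reads in HFD and 33 against 37 in LYC. The shares of the single genes thus differed between the tables more than the sums of the pairs did, and the cause was not tested. Orm3, a further close copy outside these sums, had 70 counts in HFD and 19 in LYC in that table and 1 and 0 reads in Ribo-seq.

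**Figure D4:**
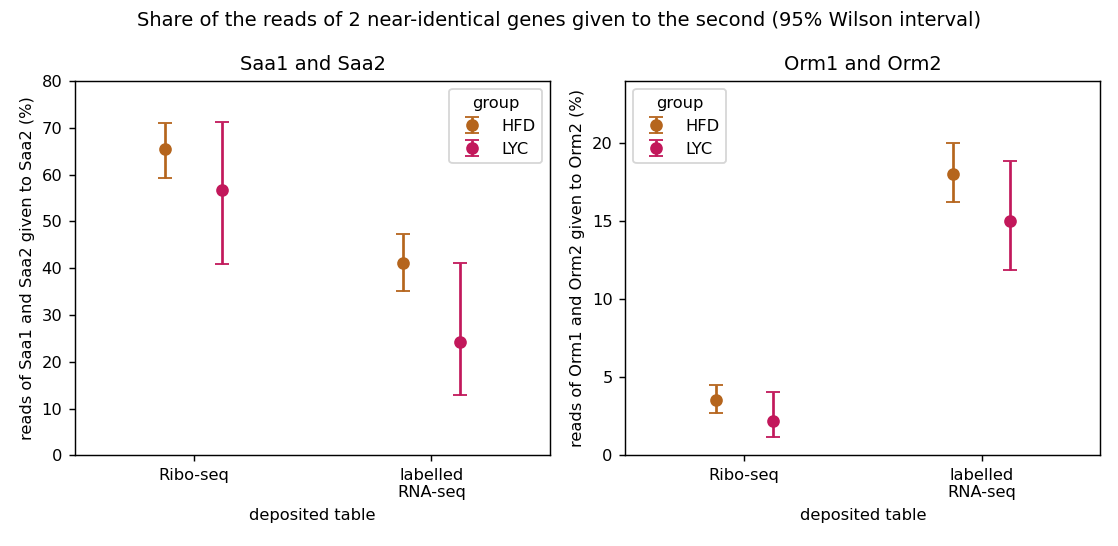
Share of the reads of Saa1 and Saa2 given to Saa2 (left, vertical axis in %) and of Orm1 and Orm2 given to Orm2 (right), over the HFD and the LYC libraries of each deposited table, with 95% Wilson intervals. Saa2 takes 65.4% in the HFD libraries of Ribo-seq and 41.1% in the table labelled RNA-seq, and Orm2 takes 3.51% and 18.0%.

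The log2 fold changes of Hpx, Orm1, Hp and Saa4 kept their sign under all 18 settings tried. Hpx ranged from -1.59 to -1.20 and was called in all of them, and Orm1 ranged from 0.74 to 1.34 and was called in 12. Hp ranged from -0.91 to -0.36 and Saa4 from -0.84 to -0.41, and neither was called in any. Orm1 lost its call under the settings that scale without TMM, remove the trend on gene length or tighten p, and without HFD2 or LYC1.

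**Figure D5:**
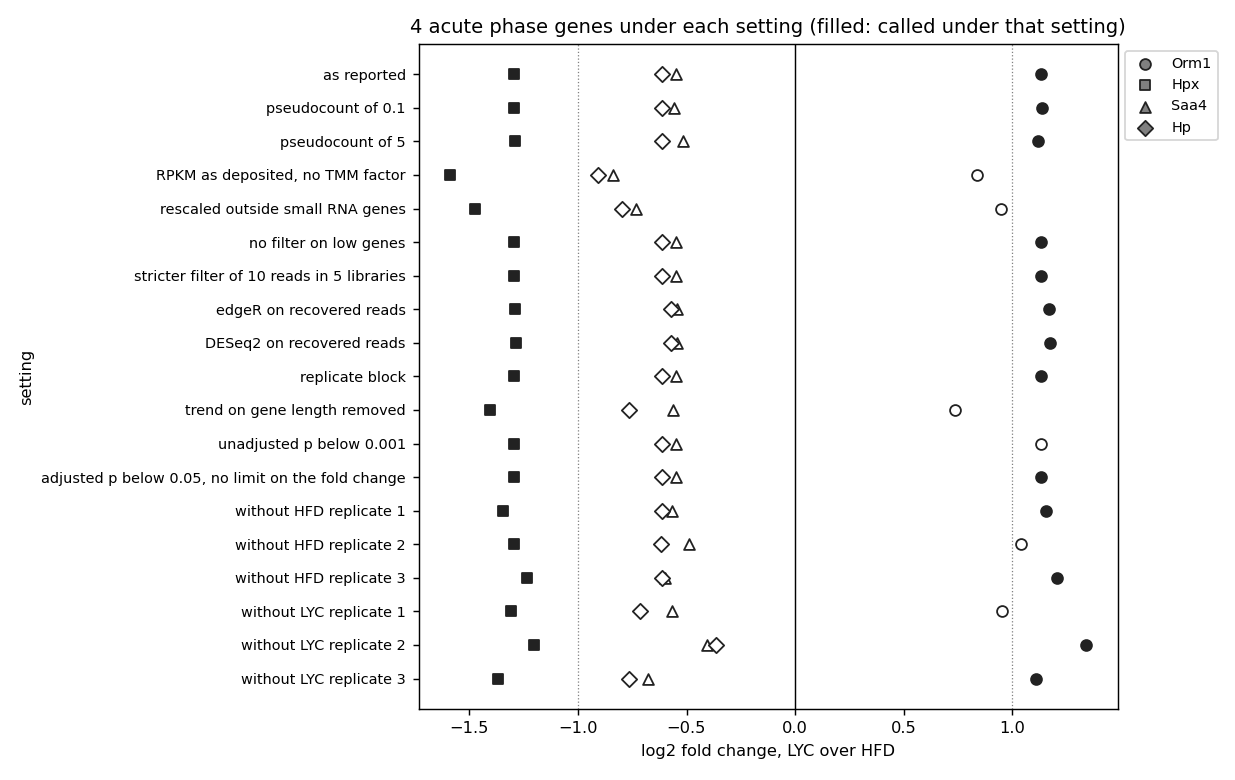
Log2 fold change of LYC over HFD (horizontal axis) of Orm1, Hpx, Saa4 and Hp under each setting (vertical axis), filled where the gene was called under that setting, with dotted lines at -1 and 1. Hpx stays at or below -1.20 and filled, and Orm1 lies between 0.74 and 1.34 and is filled in 12 of the 18 settings besides the reported one.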

How the data were processed

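Ribo-seq libraries of 3 HFD and 3 LYC livers were compared, among 12 deposited libraries. Per the submitters' processing notes and the methods of the study, reads were trimmed with cutadapt, filtered with Bowtie2 and mapped to mm10. For Ribo-seq the authors deposited RPKM values, and the second table, labelled RNA-seq, holds counts and RPKM that the authors deposited. Versions of these tools are not given in the sources used here.

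Reads behind the Ribo-seq RPKM were recovered from the size of its steps, within 0.03 of a whole read. The gene length of the second table explained 72.7% to 73.8% of the non-zero values per library as whole reads, and a length fitted to the gene was used otherwise, as for Saa1 and Saa2. A fitted length is the shortest that gives whole reads, so reads of such genes can be too few, and recovered reads sum to less than the library totals. The tests left out 4 entries whose names were not unique. TMM factors and filterByExpr (edgeR 4.0.16) were computed on recovered reads, and log2(RPKM / TMM factor + 1) was fitted by limma 3.58.1 over 5659 genes. A pseudocount of 1 makes fold changes of low genes too small. The same limits of a call were used throughout, and adjusted p-values are Benjamini-Hochberg values over all genes tested. Counts of the second table were fitted with edgeR. DESeq2 1.42.0, other scalings, pseudocounts, filters and limits, a gene length trend, a replicate block and leaving out each library were alternatives. The fits and the recovery of reads were tested on simulated data.

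Library totals and the worth of a read set the precision: 1 read on a gene of 1 kb is worth 0.227 to 1.20 RPKM in HFD and 2.43 to 3.21 RPKM in LYC. The 10 genes and all lists were chosen with earlier results of these data known. Named genes are the 10, the called genes of each list with at most 4 others of the highest mean RPKM, and the nearest profiles. Scripts ran in R 4.3.3 and in Python 3.11.15 with scipy 1.17.1, pandas 2.3.3, numpy 2.4.6 and matplotlib 3.10.9.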

Additional observations from a re-analysis of the deposited data

How the results depend on the processing

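In Ribo-seq the calls of Hpx and of the other members besides Orm1 were the same under all alternatives that gave a value. The number of members called higher, 1 as reported, was 0 with RPKM as deposited, with RPKM rescaled outside small RNA genes, with the trend on gene length removed and at p below 0.001, where the log2 fold change of Orm1 was 0.84, 0.95, 0.74 and 1.13. Leaving out 1 library at a time gave 0 to 1 member called higher and 0.95 to 1.34 for Orm1. Over all genes, 402 higher and 359 lower became 234 and 655 as deposited and 199 and 103 at p below 0.001. Genes called lower were 217 at a pseudocount of 5, 710 with no filter, 105 with the stricter filter and 152 to 569 with 1 library left out.

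Signs turned for genes without a call. For Apcs the log2 fold change was 0.019 in DESeq2 and -0.60 to 0.34 with 1 library left out, for Crp -0.25 to 0.16 with 1 left out, and for Saa2 -0.13 with the length trend removed. Jak1 and Apom had -0.023 and -0.029 as deposited, and Apom had -0.14 with the length trend removed. Il1rap and Lrp1 had 0.15 and 0.26 in edgeR, 0.14 and 0.25 in DESeq2 and 0.12 and 0.24 with the length trend removed, where Il6st had 0.10. With 1 library left out the values were -0.022 to 0.56 for Apom, -0.38 to 0.50 for Il1rap, -0.42 to 0.067 for Il6st, -0.66 to 0.62 for Lrp1 and -0.10 to 0.016 for Ttr. The cause was not tested.

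In the table labelled RNA-seq, members called higher, 2 as reported, were 0 without TMM, 1 with Lars2 left out, 1 with the replicate block, 1 with no filter and 1 to 2 with 1 library left out. Without TMM 4 members were called lower, and Saa1 and Orm2 had log2 fold changes of -0.37 and -0.069. There Apcs had 0.035 in DESeq2 and -0.70 to 0.29 with 1 library left out, and Crp had -0.21 to 0.15.

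Replicate numbers shared by HFD and LYC did not pair the libraries: deviations of same-numbered libraries correlated at 0.106, 0.025 and -0.005 over genes. With the replicate block the Ribo-seq fit called 399 genes higher and 339 lower, and it changed no call of the 10 genes there. The stricter filter gave no value for Saa2. Depth limits the LYC values, and Saa1, Orm2 and Lcn2 fell under the filter.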
